A study of Mus musculus with 8 samples.

Results

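The serpins, a superfamily of serine protease inhibitors and their relatives, were examined on 8 mouse liver arrays. Members were taken by name: a probe set belonged to the family when each gene symbol that the platform annotation gives it begins with Serpin. This gave 31 probe sets. Where a gene had several sets the one with the highest mean log2 signal was used, which left 26 entries of the 8571 gene symbols or symbol combinations on the array. Of these, 22 carry 1 symbol and 4 are shared by several closely related serpins, so that the 26 entries cover 27 gene symbols. All 8 arrays belong to 1 group: liver of phenotypically normal female Ames mice, +/+ or +/df at the dwarf locus (the labels do not say which for any animal), fed 30% less than freely fed normal females ate and killed at 24 to 26 months. Ames mice carry a recessive allele that causes pituitary dwarfism only when both copies are mutant. With a single group there is no control and no contrast, and freely fed or dwarf mice were not analysed here. The question open to these arrays is which serpin transcripts gave a readable signal in this liver and how far each differed from array to array. Each label describes 1 mouse and none mentions technical repeats, but animal and technical differences cannot be told apart here. The p-values rest only on differences between these samples.

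A serpin presents an exposed reactive loop to its target protease. When the protease cuts the loop, the loop inserts into the body of the serpin and traps the enzyme, so that each inhibitor molecule is used up. The family is divided into clades by sequence. Clade A holds the α1-antitrypsin and antichymotrypsin relatives and hormone carriers, clade B the intracellular serpins, and clades D, F and G secreted regulators of clotting, fibrinolysis and complement. Clade H is a collagen chaperone of the endoplasmic reticulum and clade I a neuronal inhibitor. Hepatocytes secrete most of the plasma serpins.

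The upstream sequences of the Serpina1 genes are shown first, because these paralogs are closely alike. Of their 6 entries 3 carry 1 symbol and the rest name several of the genes. RefSeq windows of 300 bases around the start of transcription (build GRCm38.p6) were found for 23 of the 27 genes. The 60 bases below lie upstream of each start on the minus strand of chromosome 12, at chr12:103863625-103863684 for Serpina1a, chr12:103738200-103738259 for Serpina1b, chr12:103904962-103905021 for Serpina1c, chr12:103773634-103773693 for Serpina1d and chr12:103956960-103957019 for Serpina1e. Capitals mark GTTAAT, a core motif of the liver transcription factor HNF1. Each stretch was cut around its GTTAAT, so the capitals line up by construction. The motif begins 21, 26, 27, 16 and 78 bases upstream of the start for Serpina1a to Serpina1e, in that order.
Serpina1a: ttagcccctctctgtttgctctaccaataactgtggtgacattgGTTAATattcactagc
Serpina1b: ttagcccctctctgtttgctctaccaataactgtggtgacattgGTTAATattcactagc
Serpina1c: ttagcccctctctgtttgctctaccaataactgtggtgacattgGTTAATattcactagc
Serpina1d: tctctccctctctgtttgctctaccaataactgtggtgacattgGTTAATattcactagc
Serpina1e: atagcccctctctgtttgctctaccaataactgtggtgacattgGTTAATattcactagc

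The 5 stretches were the same at 55 of 60 positions, which form a single run, and those of Serpina1a, Serpina1b and Serpina1c were identical throughout. GTTAAT was found, on either strand, in the windows of all 5 Serpina1 genes and in 0 of the 18 other serpin windows, against 7.10% of all 32851 windows of 300 bases. The matches of the 5 Serpina1 genes lie inside the run they share, so they are not independent of one another. The STAT site TTCNNNGAA and the heat shock element core TTCNNGAA each matched 2 of the 23 serpin windows, those of Serpinb2 and Serpinb6a, against 8.30% and 8.52% of all windows. The TATA box TATAAA matched 3 (Serpinb2, Serpinb3a and Serpinb6c), against 13.6%. A match describes these letters and is not evidence of a bound site. In the order of genes in the RefSeq table, 23 Serpina genes follow one another from Serpina10 to Serpina3n and include 10 genes covered here, and runs of 12 and 16 Serpinb genes include 3 and 8.

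Some arrays stood apart from the rest. On replicate 5 the log2 ratio of the 3′ over the 5′ control set of Gapdh was 4.35, against −0.24 to 0.33 on the other arrays. The pyruvate carboxylase controls gave 4.33 and 4.30 on replicates 5 and 6, and between 1.42 and 2.76 elsewhere. The median correlation with the other arrays was 0.881 for replicate 5 and 0.943 for replicate 6, against 0.962 to 0.974 for the rest. Hepatocyte markers were bright, with a summed signal of 5 markers between 112602 and 117567 after quantile normalization. That step leaves the brightest probe sets few values to take, so it bounds the spread of this sum. Among the 5, Ttr had a 1.48-fold range and the rest ran from 1.07-fold (Alb) to 1.14-fold (Ahsg). Signals below are quantile-normalized, in arbitrary units, as mean ± SD over 8 arrays. Because probes differ in affinity, signals of different genes are not ranked against each other as amounts of RNA. In whole liver, fewer cells of a type and less RNA per cell cannot be told apart.

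Serpins of clades A, D, F and G, mostly secreted plasma proteins, were read well, and those of clades B, H and I mostly were not. Of the 26 entries, 15 had a mean log2 signal above 7.22, the median over all probe sets, which by definition 50% of the 12422 probe sets exceed. They were 9 of 11 entries of clade A, 2 of 9 of clade B, both of clade F, and the single entries of clades D and G. The single entries of clades H and I were not among them. The filter fell in a gap: the nearest entry above it was Serpinb6a at a mean log2 signal of 7.98, and the nearest below was the set shared by Serpinb9e, Serpinb9f, Serpinb9g and Serpinb9h at 6.87.

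**Figure D1:**
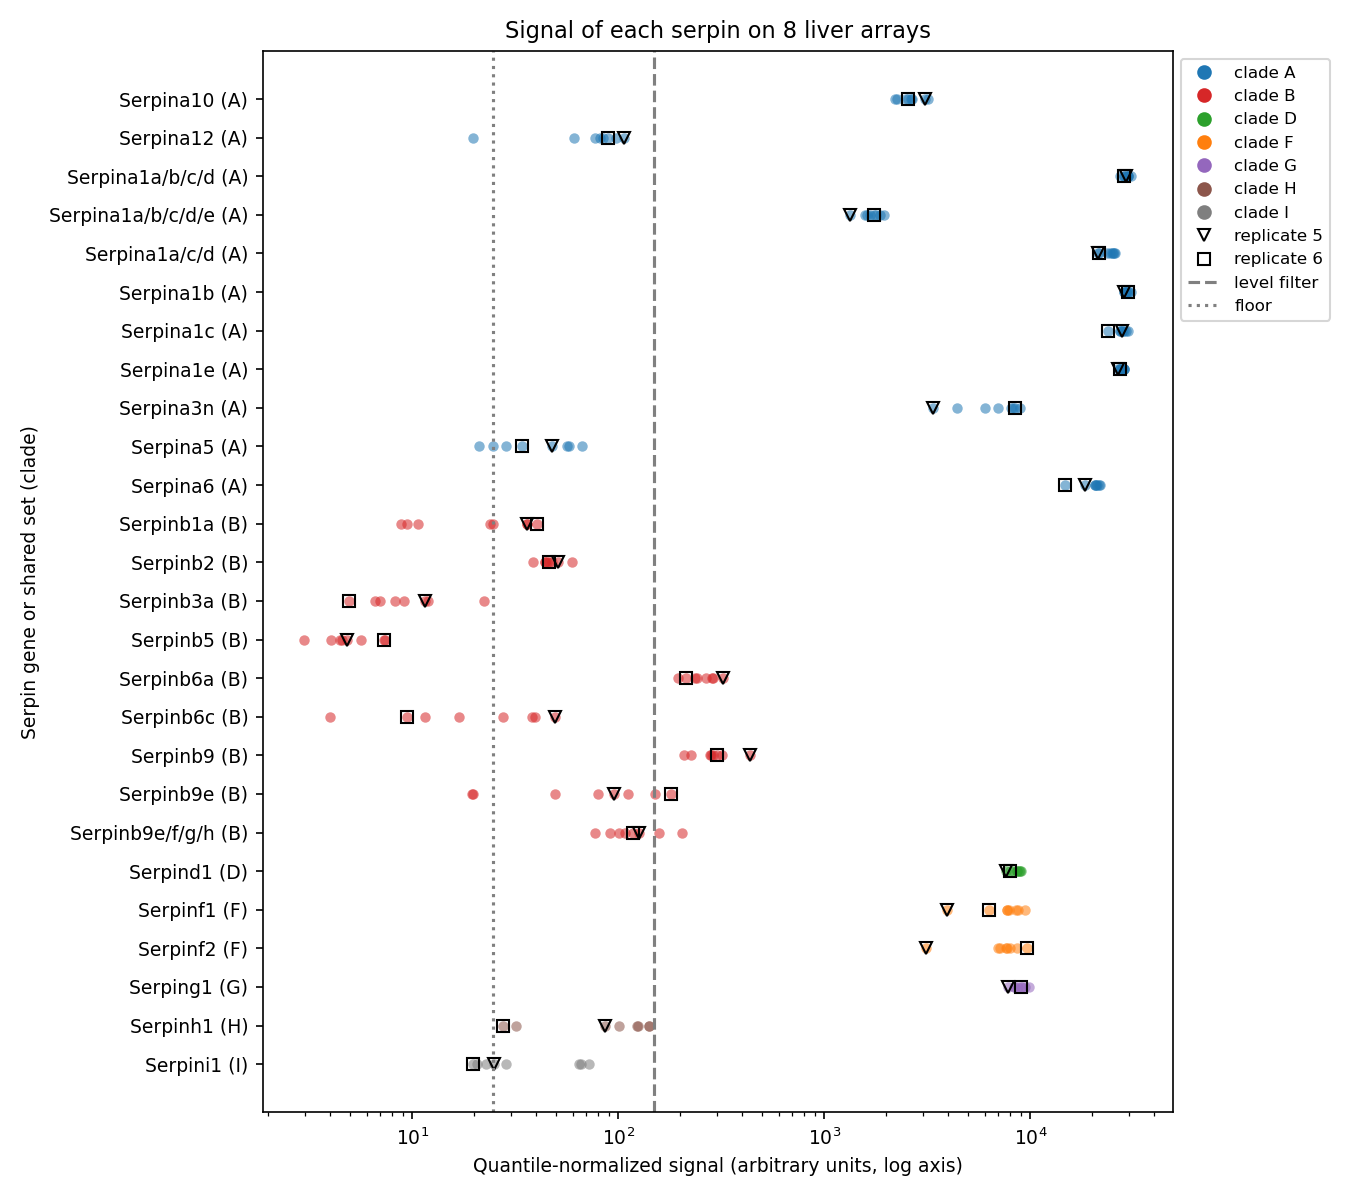
Quantile-normalized signal (arbitrary units, log axis) of each of the 26 serpin entries on each of the 8 arrays, 1 point per array, coloured by clade. Triangles mark replicate 5 and squares replicate 6, the dotted line is the floor of 24.6 and the dashed line is the level filter. Of the 11 entries left of the dashed line on average, 7 belong to clade B.

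The Serpina1 genes encode the mouse α1-antitrypsins, at least some of which inhibit neutrophil elastase. All 6 of their entries were above the filter, with ranges of 1.07-fold to 1.46-fold after quantile normalization. Serpina1b, the brightest, read 28349, 28969.8, 28969.8, 30855, 28349, 29719.6, 29719.6 and 28969.8 on replicates 1 to 8, a mean of 29238 ± 835 (SD, n = 8) and a 1.09-fold range. Its arrays lay close together and none stood apart. The set shared by Serpina1a, Serpina1b, Serpina1c and Serpina1d was at 29112 ± 1130.0, Serpina1e at 27624 ± 688 and Serpina1c at 27596 ± 1779.8. Serpina1c was lowest on replicate 6 at 23743, against 27213 to 29719.6 on the others, but on the deposited scale its lowest array was replicate 8 (24583).

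The Serpina1 entry with the largest log2 SD was the set that names all 5 genes. It read 1778, 1618, 1568, 1854, 1329, 1743, 1944 and 1673 on replicates 1 to 8, a mean of 1688 ± 189.8 (SD, n = 8) and a 1.46-fold range, lowest on replicate 5. Next by log2 SD was the set shared by Serpina1a, Serpina1c and Serpina1d (0.106, against 0.097 for Serpina1c), with 25038, 25522, 23543, 24851, 21334, 21577, 25883 and 24238, a mean of 23998 ± 1728 and a 1.21-fold range. Its lowest values were on replicates 5 and 6. Since these sets share sequence between paralogs, none of the values can be given to 1 gene with certainty.

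The processing bounds the spread of the brightest Serpina1 sets. After quantile normalization all arrays hold 1 common list of values, and Serpina1b ranked between 2 and 5 on all arrays, so that it could take few different values. On the deposited scale the coefficients of variation of the 6 entries ran from 4.34% to 10.6%, beside 3.69% for Serpind1 and 5.97% for Serping1. There all 6 were highest on replicate 7, while 4 were lowest on replicate 8 and 2 on replicate 5; after quantile normalization 2 of 6 were highest on replicate 7. The mean deposited signal of the 100 brightest probe sets on an array ran from 95.7% (replicate 8) to 103.9% (replicate 3) of its mean over arrays, with 102.3% on replicate 7.

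Serpina3n is a mouse relative of α1-antichymotrypsin and an acute phase gene of the liver. Among the 9 clade A entries above the filter it was the only one with more than a 2-fold range. Its signals on replicates 1 to 8 were 5989, 8193, 4418, 6973, 3353, 8432, 8953 and 8059.6, a mean of 6796 ± 2038 (SD, n = 8) and a 2.67-fold range. Replicates 3 and 5 were low, replicate 1 intermediate, and the other 5 lay between 6973 and 8953. The range was 2.03-fold without replicates 5 and 6. By limma's variance test, which sets a probe set's variance against that of probe sets of like level, Serpina3n had an unadjusted p of 0.0435 and did not pass after Benjamini-Hochberg adjustment (adjusted p = 0.869).

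Serpina6, corticosteroid-binding globulin, carries glucocorticoids in plasma and does not inhibit proteases. It read 21159.6, 21577, 20490.1, 21818, 18323, 14655, 20490.1 and 20748 on replicates 1 to 8, a mean of 19908 ± 2375 (SD, n = 8). Replicate 6 was low, and without replicates 5 and 6 the range was 1.06-fold. A second, dimmer Serpina6 set was also lowest on replicate 6, at 802, but on replicate 5 it was highest, at 2043, where the brighter set was below its other 6 arrays. Serpina10, the protein Z-dependent inhibitor of coagulation factor X, read 2245, 2664, 2622, 2194, 3080.5, 2543, 3176 and 2485, a mean of 2626 ± 352 and a 1.45-fold range with no array apart. Serpina12 (vaspin), known as an adipose tissue serpin, and Serpina5, the protein C inhibitor, were below the filter, at 19.8 to 106 and 21.1 to 66.5.

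The clade B serpins act mainly inside cells, and 7 of their 9 entries were below the filter. Serpinb9, the inhibitor of granzyme B, was one of the pair above it and read 225, 277, 281, 208, 436, 301, 287 and 319.6 on replicates 1 to 8, a mean of 292 ± 69.3 (SD, n = 8) and a 2.09-fold range. Its highest array was replicate 5, and without replicates 5 and 6 the range was 1.53-fold. It was also under 2-fold on the deposited scale (1.84-fold) and without replicate 4 (1.95-fold). Granzyme B (Gzmb) itself was below the filter at 90.1 ± 37.1 and was likewise highest on replicate 5. Of 4 T, NK and B cell markers on the array 1 was above the filter, the B cell gene Cd79a (126 to 306), and 0 lay at the floor on all arrays. Their summed signal ran from 237 on replicate 6 to 412 on replicate 2, with 369.8 on replicate 5. The markers below the filter differed: Cd3e was highest on replicate 5 (71.2), Cd8a on replicate 6 (48.2) and Gzma on replicate 4 (57.9). The sum thus does not stand for T or NK cells alone, and the part of these markers in the Serpinb9 values was not tested. Serpinb6a, an intracellular inhibitor of trypsin-like proteases, read 241, 267, 195, 235, 323, 213, 288 and 285, a mean of 256 ± 42.7 and a 1.66-fold range, also highest on replicate 5. On the deposited scale Serpinb6a was highest on replicate 7, at 293 against 290.3 on replicate 5.

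The other clade B entries were dim. Serpinb3a and Serpinb5 (maspin, known from epithelia) lay under the floor of 24.6 on all 8 arrays. Serpinb1a, an inhibitor of neutrophil proteases, ran from 8.76 to 40.3, Serpinb6c from 3.96 to 49.1, and Serpinb2, a plasminogen activator inhibitor, from 38.6 to 59.5. Serpinb9e ran from 19.5 to 179.9, and the set it shares with Serpinb9f, Serpinb9g and Serpinb9h from 76.6 to 203. Values this low hold background as well as signal, so no order among them was read.

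Serpind1, heparin cofactor II, inhibits thrombin, and Serping1, the C1 inhibitor, controls the first proteases of complement and the contact system. Both were steady. Serpind1 read 8632, 9022, 8799, 8204, 7653, 7973, 8574 and 8871 on replicates 1 to 8, a mean of 8466 ± 478 (SD, n = 8) and a 1.18-fold range. Serping1 read 8664, 9068, 8317, 8464, 7810.2, 8984, 9385 and 9809, a mean of 8813 ± 634 and a 1.26-fold range. For both the lowest array was replicate 5, whereas on the deposited scale it was replicate 4.

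Both clade F serpins were low on replicate 5. Serpinf1, pigment epithelium-derived factor, is a secreted anti-angiogenic protein without inhibitory activity. It read 7679, 7717, 7837, 8479.8, 3936, 6289.9, 8664 and 9436 on replicates 1 to 8, a mean of 7505 ± 1708 (SD, n = 8) and a 2.40-fold range. Serpinf2, α2-antiplasmin, is the main inhibitor of plasmin. It read 8574, 7606, 6998, 7157, 3125, 9643, 7973 and 7698, a mean of 7347 ± 1903 and a 3.09-fold range. With both Serpinf2 probe sets averaged the range was 1.95-fold. Replicate 5 stood below all others for both, and without replicates 5 and 6 each range was 1.23-fold. Serpinf2 had an unadjusted p of 0.0439 by limma's test and Serpinf1 of 0.0885, and neither passed after adjustment (adjusted p = 0.869 and 0.956).

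**Figure D2:**
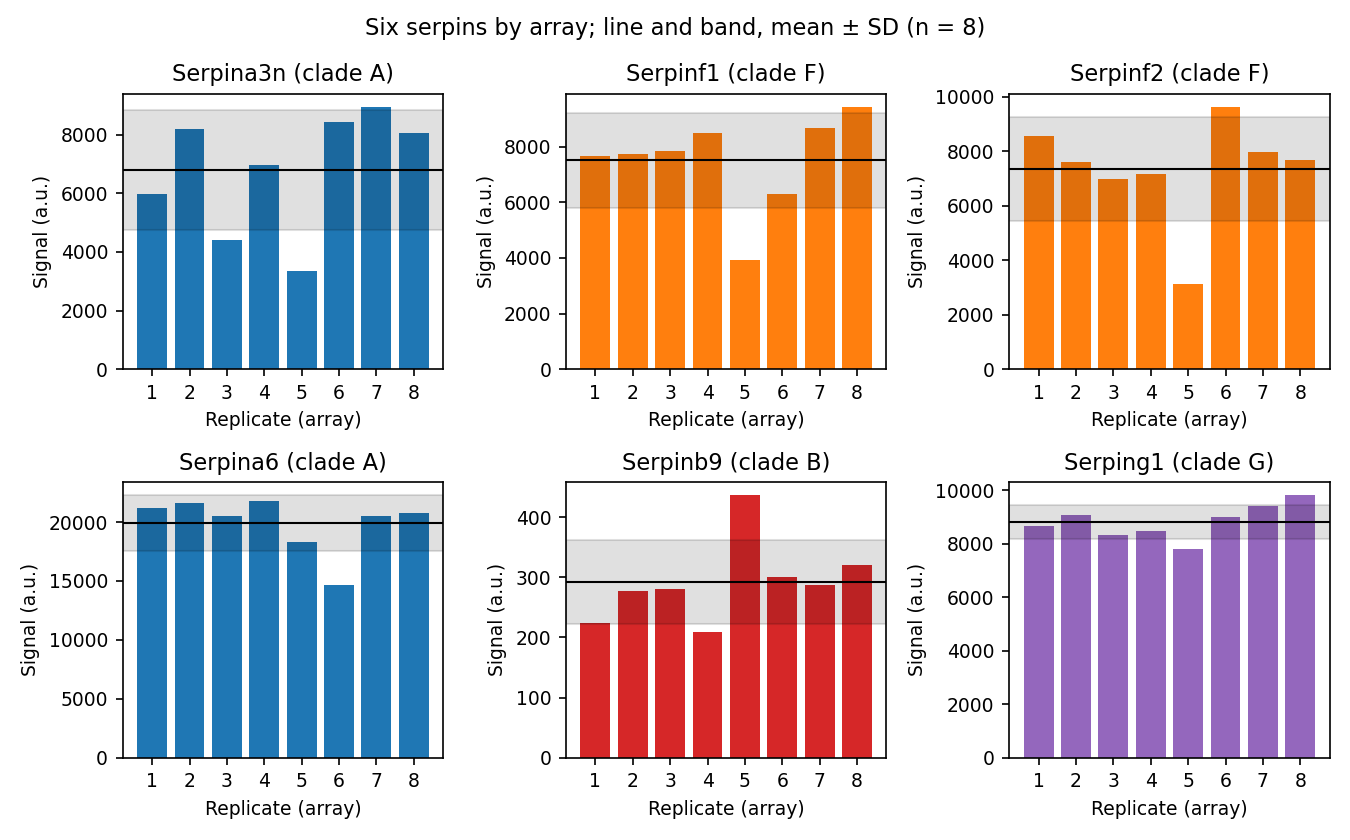
Quantile-normalized signal (arbitrary units, linear axis from 0) of 6 serpins on replicates 1 to 8, 1 bar per array, with the mean as a line and ± 1 SD as a grey band. Serpinf1 (3936) and Serpinf2 (3125) were lowest on replicate 5, Serpina6 (14655) on replicate 6, and Serpina3n was low on replicates 3 (4418) and 5 (3353).

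The low Serpinf2 value on replicate 5 was not seen with the second probe set of the gene. Relative to the median of the other arrays, the brighter set was at −1.30 on the log2 scale on replicate 5 and the dimmer set at −0.06. For Serpina6 the sets were at −0.18 and 0.78 on replicate 5 and at −0.50 and −0.70 on replicate 6. For Serpina1c they were at 0.00 and −0.04 on replicate 5 and at −0.23 and −0.07 on replicate 6. Plasminogen (Plg), the precursor of the protease that Serpinf2 inhibits, showed a larger disagreement of the opposite sign. On replicate 5 its brighter set read 31871, its highest array. Its other set read 464.7 on replicate 5 and 7679 on replicate 6, against 14894 to 18199 elsewhere. Over 689 genes with a pair of sets above the filter, the median absolute log2 disagreement was 0.538 on replicate 5, where 27.0% of genes exceeded 1. It was 0.280 on replicate 6 and between 0.126 and 0.217 elsewhere. The second Serpinf1 set was below the filter at 118 ± 63.7, with 94.2 on replicate 5 and its lowest value on replicate 4 (68.9). At this level it cannot decide whether Serpinf1 was low on replicate 5, so that value rests on 1 set.

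**Figure D3:**
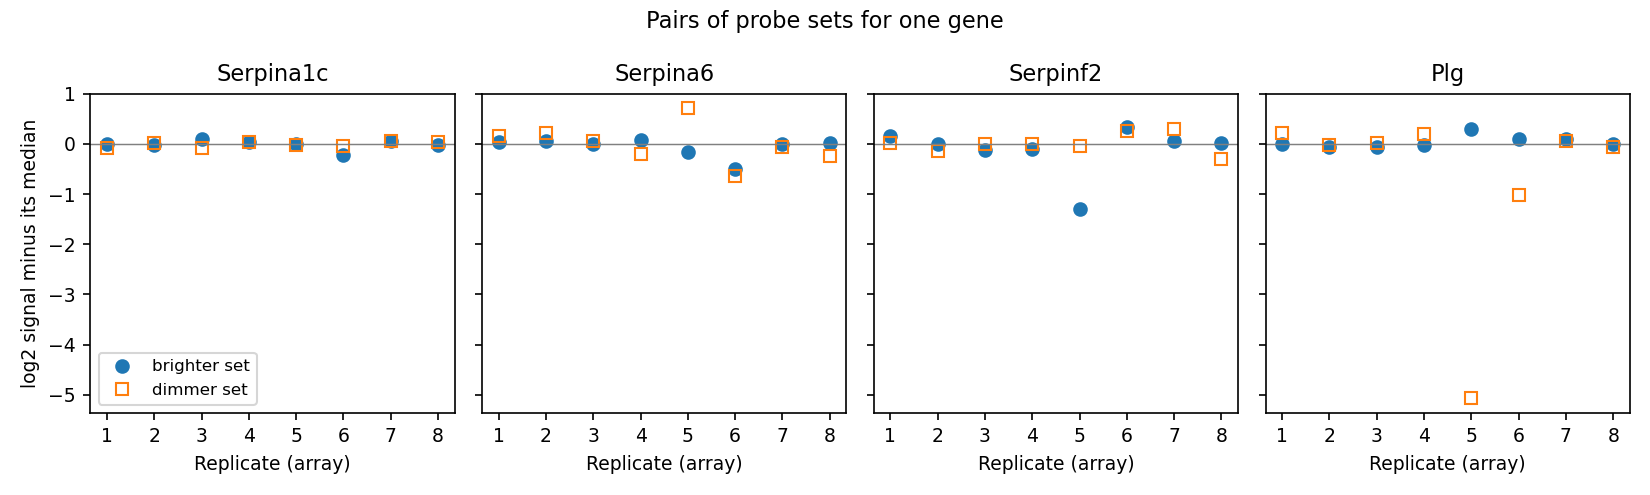
Log2 signal minus its own median over the 8 arrays for the brighter set (filled circles) and the dimmer set (open squares) of Serpina1c, Serpina6, Serpinf2 and Plg, by replicate. The sets of a gene lie close together on most arrays and part on replicate 5 for Serpina6, Serpinf2 and Plg and on replicate 6 for Plg.

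Serpinh1, the collagen chaperone Hsp47, and Serpini1, neuroserpin, were below the filter. Serpinh1 read 140.2, 100.5, 124, 141, 85.9, 27.4, 31.9 and 125 on replicates 1 to 8, with replicates 6 and 7 near the floor. All 7 stellate cell and fibroblast markers on the array were above the filter, 0 lay at the floor on all arrays, and their summed signal was lowest on replicate 6 (6042) but 8048 on replicate 7, against 7517 to 8528 on the others. Their part in the Serpinh1 values was not tested. Serpini1 ran from 19.6 to 72.1.

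Clades were compared by the spread of their entries over the arrays. The median SD of the log2 signal was 0.106 for the 9 entries of clade A, and within it 0.0766 for the 6 Serpina1 entries. The clade B pair had SDs of 0.244 and 0.324 and the clade F pair 0.398 and 0.496, and the single entries of clades D and G had 0.0828 and 0.104. The median over all 6211 probe sets above the filter was 0.284, falling to 0.215 for the brightest 621 and to 0.106 for the brightest 63. The Serpina1 entries other than the set naming all 5 genes ranked within the brightest 23 on every array, a range of level in which probe sets in general had little spread. With at most 2 entries above the filter in each other clade, no difference between clades was tested.

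**Figure D4:**
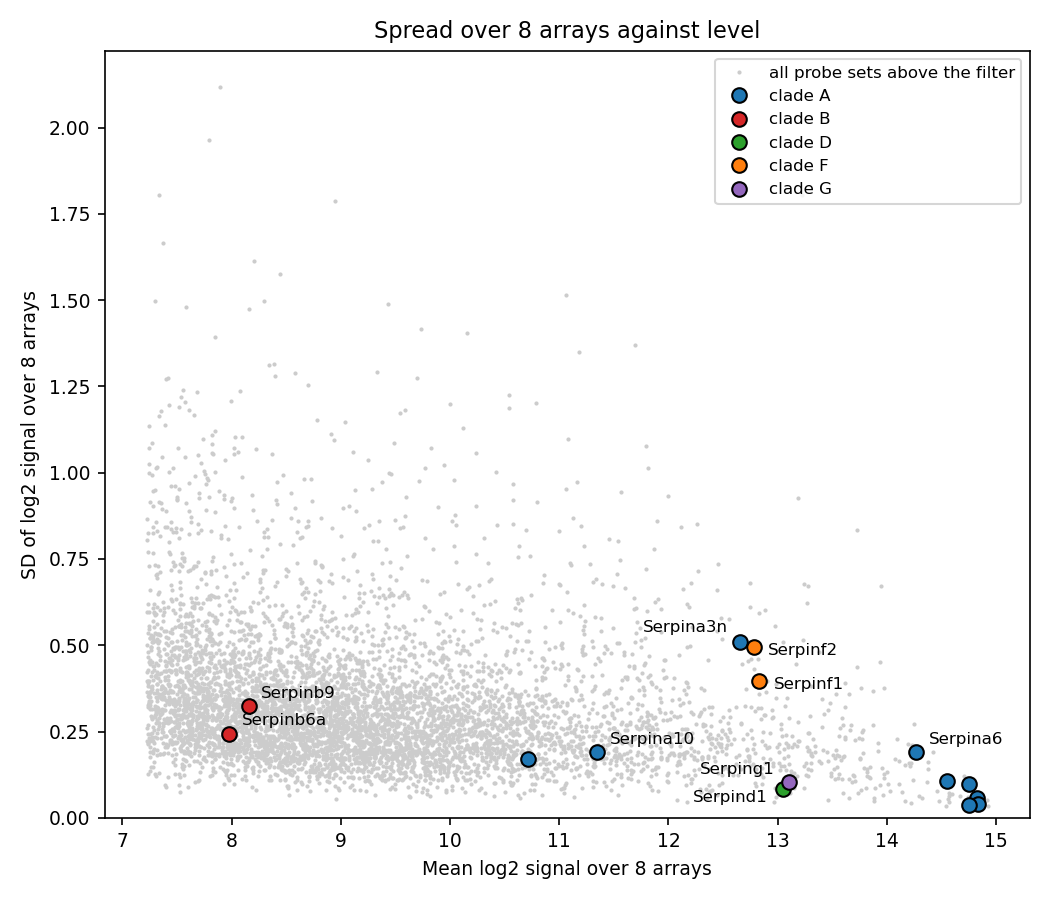
SD of the log2 signal over 8 arrays against the mean log2 signal, for all 6211 probe sets above the level filter (grey) and the 15 serpin entries (coloured by clade). Serpina3n, Serpinf2 and Serpinf1 have SDs of 0.508, 0.496 and 0.398, and the unlabelled clade A points are the Serpina1 entries, at 0.169 or less.

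By limma's variance test, 0 of the 15 entries passed at an adjusted p of 0.05, as did 0% of the 6211 probe sets tested (0 sets, lowest adjusted p = 0.842). Even the complement gene C1qa, with a 19.5-fold range, had an unadjusted p of 0.00232 and an adjusted p of 0.842 by this test. Its range came from replicate 5, at 80.0 against 768 to 1557 on the other arrays. With a prior of 4.03 degrees of freedom, the test can miss a real spread. A count of 0 therefore does not show that the serpins were even. At an unadjusted p of 0.05 there were 2 entries, Serpina3n and Serpinf2, against 5.67% of all. A range above 2-fold was seen in 4 of the 15 (Serpina3n, Serpinb9, Serpinf1 and Serpinf2), against 38.6% of all. Without replicates 5 and 6, on the same normalized values, Serpina3n alone remained, against 11.2%. One array stood apart from the other 7 by Dixon's ratio in 4 entries, Serpina1c, Serpina6, Serpinf1 and Serpinf2, against 20.8% of all. In each of these it was replicate 5 or 6, and how often that held over all probe sets was not computed. Of the 15 entries 8 were lowest on replicate 5, against 28.7% of all, and 2 were highest there, against 33.2%. On the deposited scale 5 were lowest on replicate 5, and the share of all probe sets on that scale was not computed. Which part of this the raised 3′ over 5′ ratios of replicates 5 and 6 account for was not tested.

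Genes that work with the serpins were taken from lists of their target proteases, receptors and cofactors and of other secreted protease inhibitors. Of 29 listed targets, receptors and cofactors 25 were on the array and 18 above the filter. Of these 4 had more than a 2-fold range, against 38.6% of all probe sets, and limma called 0 after adjustment and 1 (Cela1) unadjusted, against 5.67% of all. The pancreatic-type elastase Cela1 was at 858 ± 449.8 (SD, n = 8) with a 3.95-fold range, highest on replicate 7 (1827) and replicate 8 (1177). Cela1 is itself 1 of the 3 exocrine pancreas markers on the array. Of the others, Reg1 was 139.7 on replicate 7, 124 on replicate 8 and highest on replicate 2 (1968), and Prss2 lay at the floor on all arrays. Lrp1, the hepatocyte receptor that takes up serpin-protease complexes, was at 4096 ± 1036, with 1556 on replicate 5 and 4254 to 4649 on all others. Of 26 other secreted inhibitors 24 were on the array and 18 above the filter, 5 had more than a 2-fold range, and limma called 0 adjusted and 1 (Mug2) unadjusted, against the same shares of all probe sets. The murinoglobulin Mug2 was at 6152 ± 2485, highest on replicate 5 (10493), and Tfpi2, a Kunitz-type inhibitor, at 1784 ± 550.3, lowest on replicate 6 (733).

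Serpins were last set against a gene they are known to act on or respond with. Of 11 pairs, 6 had both genes above the filter under 1 symbol, and each was tested with an exact two-sided permutation test over all pairings of the 8 arrays, with Benjamini-Hochberg adjustment over the 6. None passed. Serpind1 and prothrombin (F2), whose product it inhibits, gave a Pearson r of 0.71 (exact permutation p = 0.0482, adjusted p = 0.248) and a Spearman rho of 0.79 (exact p = 0.0279, adjusted p = 0.168). Without replicates 5 and 6, the arrays farthest from the median of Serpind1, r was 0.50. Serpinf2 and Plg gave r = −0.69 (exact permutation p = 0.120, adjusted p = 0.248) and rho = 0.24 (exact p = 0.568, adjusted p = 0.793), and r was 0.54 without replicates 5 and 6. The negative value rests on replicate 5, where the sets of Plg disagreed and so did those of Serpinf2. With the arrays renormalized, r was 0.74 without replicate 5 alone and −0.83 without replicate 6 alone. Which gene's sets carry the negative value was not tested. Serpina6 and the glucocorticoid-induced enzyme Tat gave r = −0.63 (exact permutation p = 0.124, adjusted p = 0.248) and rho = 0.12 (exact p = 0.781, adjusted p = 0.793), and r was 0.42 without the same arrays. Tat was 25038 on replicate 6, the array where Serpina6 was lowest, against 12179 to 18470.5 elsewhere.

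The other 3 pairs gave smaller values. Serping1 and the interferon-induced GTPase Irgm1 gave r = −0.37 (exact permutation p = 0.369, adjusted p = 0.553), rho = −0.19 (exact p = 0.665, adjusted p = 0.793) and r = −0.31 without replicates 5 and 8. For Serpina3n and serum amyloid Saa3, both acute phase genes, r was 0.07 (exact permutation p = 0.891, adjusted p = 0.891), rho −0.12 (exact p = 0.793, adjusted p = 0.793) and r 0.03 without replicates 3 and 5. For Serpina3n and the acute phase gene Orm2 r was −0.07 (exact permutation p = 0.864, adjusted p = 0.891), rho −0.14 (exact p = 0.752, adjusted p = 0.793) and r −0.55 without replicates 3 and 5. With 8 arrays these tests can miss a real relation, and a p above the threshold does not show that a pair is unrelated.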

How the data were processed

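Liver RNA of 8 mice was hybridised to Affymetrix mouse U74Av2 arrays and read on a Hewlett-Packard GeneArray scanner, per the labels. The deposited values are intensities on a linear scale, 1 per probe set and array; for the authors' image analysis software, background handling and scaling, details were not given in the sources used here. Of 12488 probe sets 66 controls were left out. Because the array medians differed by 26.1% (limit 10%), values were quantile-normalized; those under the 20th percentile of positive values (24.6) were raised to it for log2, ranges and tests, while signals are printed without that floor. Probe sets above the median mean log2 (6211 of 12422) were tested with limma (3.58.1, R 4.3.3): variance over arrays (7 residual degrees of freedom) against a robust, level-dependent prior (4.03 degrees of freedom), 1-sided F test, Benjamini-Hochberg threshold 0.05. The test was also run on simulated data, whose outcome is not given here, and no result above rests on it. Dixon's ratio used the 95% critical value 0.526, which chance passes in about 1 of 20 groups. Symbols came from the platform annotation (10833 sets with 1 symbol, 396 with several, 1193 with none), and upstream sequences from RefSeq (GRCm38.p6).

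Values on each array are given for the 2 entries of largest log2 SD, and the brightest, in each clade or Serpina paralog group above the filter, and partner genes are the pairs and the 2 most variable of each list. The members and lists were chosen with earlier results of these data known. In all 18 alternatives were run: deposited scaling, other floor, filters and priors, probe sets averaged, shared sets left out, rank correlation, and arrays left out. Replicate numbers pair nothing, as there is 1 group. Array number limits the precision. 1 item is not reported here.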

Additional observations from a re-analysis of the deposited data

Results flagged for a closer look

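In 8 cases 1 array lay far from the other 7 of the group, by the gap to its nearest neighbour relative to the whole range. Chance passes this in about 1 of 20 groups, and 20.8% of all probe sets above the filter passed it. Serpinf1 was 3936 on replicate 5 against 6289.9 to 9436 on the others. Serpinf2 was 3125 on replicate 5 against 6998 to 9643, but its second set was at −0.06 on the log2 scale relative to the median of the others. Serpina6 was 14655 on replicate 6 against 18323 to 21818, and its second set was also lowest there. Serpina1c was 23743 on replicate 6 against 27213 to 29719.6, but on the deposited scale its lowest array was replicate 8 (24583). Among the partner genes, Lrp1 was 1556 on replicate 5 against 4254 to 4649, and Plg was 31871 on replicate 5 against 24658 to 27781. The other Plg set was instead lowest on replicate 5, at 464.7 against 7679 to 18199. Tfpi2 was 733 on replicate 6 against 1597 to 2713, and Saa3 was 1569 on replicate 2 against 196 to 483. Of these arrays, replicates 5 and 6 had the raised 3′ over 5′ control ratios, and replicate 2 did not.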

How the results depend on the processing

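The count of serpins called variable by limma and the count of pairs past the threshold were 0 under every alternative run for them (16 and 15). Both tests can miss a real spread or relation, under the alternatives too. Of the 15 entries above the filter, 4 exceeded a 2-fold range. The count was 10 of 26 with no filter, against 46.7% of all probe sets. It was 1 without replicates 5 and 6, against 10.9% with arrays renormalized, and 1 without replicate 5 alone, against 17.9%. With 1 array left out it ran from 1 to 4, against 17.9% to 37.4%. An array stood apart in 4 entries, but in 2 with the deposited scaling, 2 with probe sets averaged, 0 without replicates 5 and 6, and 2 to 3 with 1 array left out (2 without replicate 1, 2 or 5). The share of all probe sets with an array apart was not computed under these alternatives. With no filter all 26 entries counted as above it. The clade A median SD of 0.106 became 0.169 with no filter, 0.0522 without replicates 5 and 6 and 0.144 without shared sets, with a jackknife standard error of 0.0297. Several correlations, none past the threshold, changed sign. Serpinf2 with Plg gave 0.79 with probe sets averaged, 0.55 without replicates 5 and 6, 0.24 as rho, and −0.83 to 0.74 with 1 array left out. Serpina6 with Tat gave 0.46, with arrays renormalized without replicates 5 and 6, 0.12 as rho, and −0.81 to 0.52 with 1 array left out. Serping1 with Irgm1 gave 0.0056 without replicates 5 and 6. Serpina3n gave −0.12 with Saa3 as rho and −0.36 to 0.30 with 1 array left out, and with Orm2 −0.28 to 0.26. The cause was not tested. No paired analysis was possible because the labels give 1 group. Signal over background limits the 11 entries below the filter.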
